A study of Mus musculus with 25 samples.

Results

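The genes described here are 9 that encode whey proteins and components of the milk fat globule: Wap, Lalba, Glycam1, Olah, Trf, Mfge8, Btn1a1, Xdh and Plin2. They were taken by symbol from a deposited table of raw counts, in which all 9 were found among 53070 rows. The RNA came from mouse mammary tumours. According to the labels, tumours were digested with collagenase and then trypsin, and GFP-positive, DAPI-negative cells were sorted before RNA was extracted. All mice carried LSL-Pik3caH1047R, a mutant of the PI3-kinase catalytic subunit that Cre switches on, and LSL-Cas9-EGFP, which Cre switches on in the same cells.

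In the first experiment, 6 tumours on a mixed C57BL/6 x FVB/N background received adenoviral Krt5-Cre (Ad-Krt5-Cre), in which Cre is driven by the promoter of a basal keratin. Of these, 3 were Kdm6afl/fl, with the gene of a histone H3 demethylase flanked by loxP sites, and 3 were Kdm6a wildtype. In the second, 19 tumours on an F1 C57BL/6 x FVB/N background received a lentivirus that carries Cre and a guide RNA. The guides were sgAsxl2, sgKdm6a, sgSetd2 and the non-targeting sgNT, with 2 tumours each, sgKmt2c with 3, and sgApc and sgTrp53 with 4 each. Ages were not in the labels, and the labels do not say whether replicates came from separate animals, so p-values measure only the spread between these samples.

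The count columns are headed by numbers. The study's design text gives 1 to 19 to the CRISPR tumours and 20 to 25 to the Cre-Lox tumours, and nothing in the labels ties a number to a guide. Libraries are therefore named by number, and the 7 guides were pooled. Libraries 23 and 24 form a second table, which the descriptions of the first 2 Kdm6afl/fl replicates name, so both were Kdm6afl/fl. Of the other 4 Ad-Krt5-Cre libraries, 3 were Kdm6a wildtype and 1 was Kdm6afl/fl, and which was which was not resolved. The virus, the promoter of Cre, the strain background, the guides and the Kdm6a genotype differ between the experiments, and their parts in a difference between them cannot be told apart.

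In lactation, alveolar luminal cells of the mammary gland secrete whey proteins by exocytosis and release fat as droplets wrapped in apical plasma membrane. Wap, the whey acidic protein, and Lalba, the alpha-lactalbumin subunit of lactose synthase, are whey genes that prolactin signalling through Stat5 induces in mouse alveoli. Glycam1 encodes a small mucin-like milk protein that is also made by high endothelial venules of lymph nodes, Olah a thioesterase that releases medium-chain fatty acids from fatty acid synthase, and Trf the iron carrier transferrin, which is also a major product of liver. Mfge8 (lactadherin) coats the globule, Btn1a1 (butyrophilin) and Xdh (xanthine oxidoreductase) form part of the coat between droplet and membrane, and Plin2 (adipophilin) covers intracellular lipid droplets in many cell types.

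The windows around the start sites of the 3 secreted whey genes that varied most between tumours are shown because these genes moved together across libraries. Each runs from 250 bases before to 50 bases after the start site in RefSeq (GRCm38.p6). All 3 are on the minus strand, and the capitals mark the only match to TTCNNNGAA, the form of site that Stat proteins bind. The windows are Wap at chr11:6638600-6638899, Lalba at chr15:98482634-98482933 and Glycam1 at chr15:103565032-103565331.

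Wap: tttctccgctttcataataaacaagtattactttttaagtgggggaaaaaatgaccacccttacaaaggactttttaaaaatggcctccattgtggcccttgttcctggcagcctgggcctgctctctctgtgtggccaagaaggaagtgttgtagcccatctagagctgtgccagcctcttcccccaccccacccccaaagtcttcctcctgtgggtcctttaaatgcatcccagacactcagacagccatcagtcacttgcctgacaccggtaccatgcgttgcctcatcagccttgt
Lalba: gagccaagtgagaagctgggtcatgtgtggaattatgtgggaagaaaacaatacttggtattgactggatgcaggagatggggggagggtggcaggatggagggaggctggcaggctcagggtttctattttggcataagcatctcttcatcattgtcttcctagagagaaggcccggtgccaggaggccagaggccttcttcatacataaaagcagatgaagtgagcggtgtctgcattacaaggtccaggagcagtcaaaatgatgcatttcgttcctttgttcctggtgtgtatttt
Glycam1: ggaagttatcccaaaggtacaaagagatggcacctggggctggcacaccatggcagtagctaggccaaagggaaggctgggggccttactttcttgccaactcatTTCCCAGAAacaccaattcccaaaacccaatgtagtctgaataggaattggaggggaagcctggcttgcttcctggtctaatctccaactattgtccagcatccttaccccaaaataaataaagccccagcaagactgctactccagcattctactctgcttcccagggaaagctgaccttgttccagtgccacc

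Windows were found for 6 of the 9 genes (Wap, Lalba, Glycam1, Olah, Mfge8 and Plin2). Among these 6, TTCNNNGAA, which reads the same on both strands, was found in Glycam1 only, at bases 106 to 114 of the window. Of 32851 mouse windows of this length, 8.30% hold it. TATAAA, searched on both strands, was in none of the 6 and in 13.6% of all windows. A match is a description of the letters in this window and no more.

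Libraries held 7685148 to 43673097 counts over the shared rows, and between 19491 and 23264 genes had at least 1 count in 24 libraries. Library 13 stood apart with 12757 genes. Summed CPM (counts scaled to the library total) of 8 macrophage markers ran between 45.2 and 19614 in Ad-Krt5-Cre libraries and between 68.4 and 10815 in lentiviral libraries, and those of 7 fibroblast markers between 2472 and 12909 in Ad-Krt5-Cre libraries and between 892 and 73929 in lentiviral libraries. Libraries 12, 14, 15, 16, 17, 21 and 22 passed 2000 CPM of the macrophage markers, and libraries 16, 18 and 19 passed 50000 CPM of the fibroblast markers. Library 21 had the highest macrophage sum of all and only 607 CPM of basal epithelial markers. The 7 luminal epithelial markers summed to between 755 and 3749 CPM in Ad-Krt5-Cre libraries and between 251 and 5993 CPM in lentiviral libraries. In bulk RNA, fewer cells of a type and less RNA per cell cannot be told apart.

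Trf was far higher in Ad-Krt5-Cre tumours, and Wap was lower. The other 7 genes did not pass the test between the experiments. Across the table, edgeR's quasi-likelihood test called 3590 of 16180 genes at an adjusted p under 0.05, which is 22.2% of genes in either direction, 13.1% higher and 9.13% lower in Ad-Krt5-Cre. The 2 of 9 called here are a share close to that background, so the count says nothing particular about these genes as a group. The median log2 fold change of the 9 was -0.71, beside 0.06 over all genes tested.

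**Figure D1:**
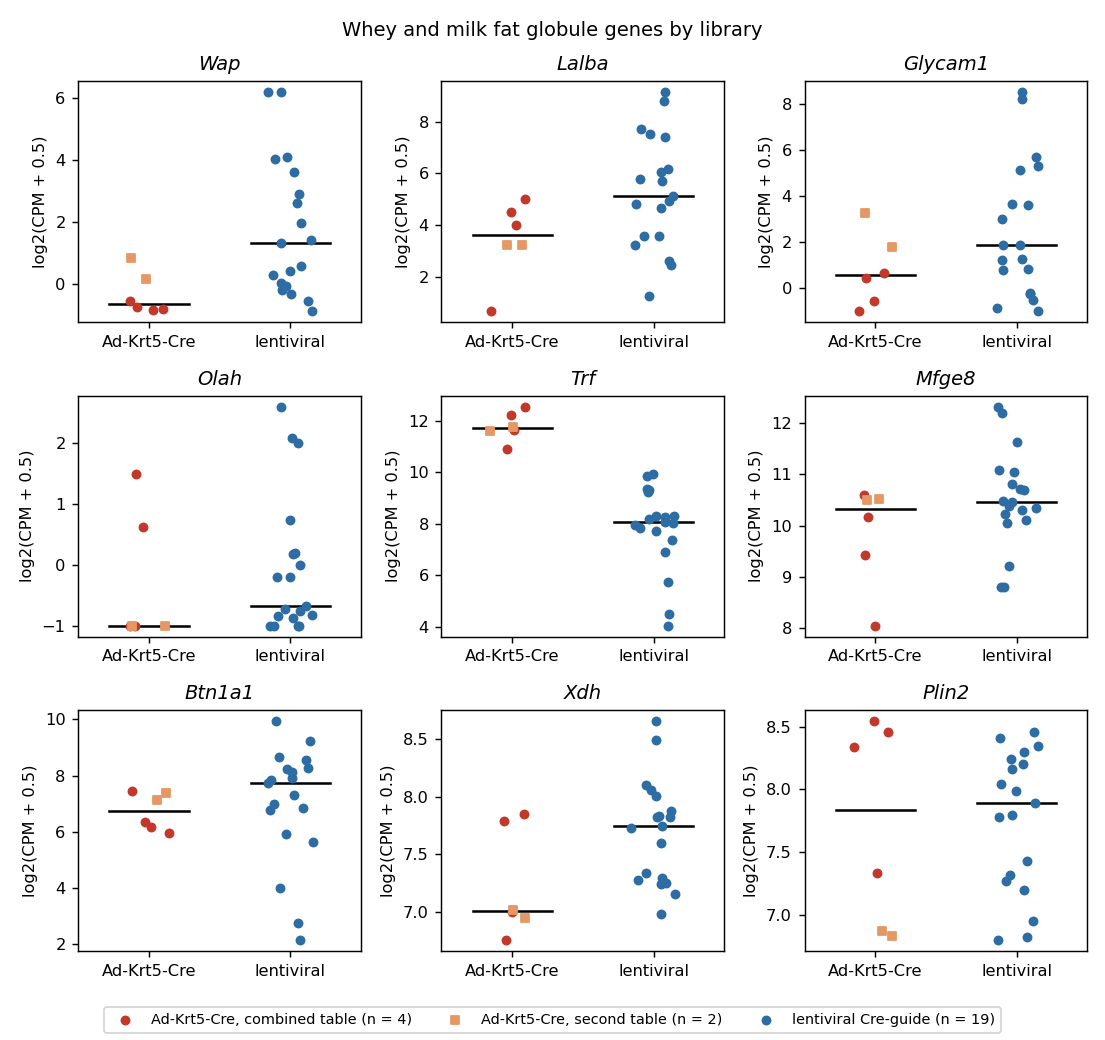
Level of each gene as log2(CPM + 0.5) in 6 Ad-Krt5-Cre libraries (red circles, combined table, n = 4, and orange squares, second table, n = 2) and 19 lentiviral Cre-guide libraries (blue); bars are medians over each experiment. Trf is the only one of the 9 in which all Ad-Krt5-Cre libraries lie above all lentiviral libraries, as do 1.25% of all genes tested.

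Trf lies at chr9:103204001-103230444 on the minus strand, where the protein-coding Gm20425 overlaps 63.5% of the exon bases of Trf. Gm20425 has no row among the joined counts, and how reads in the shared bases were treated was not given. In Ad-Krt5-Cre tumours Trf stood at 4824 CPM in library 20, 3214 in library 21, 6029 in library 22 and 1910 in library 25. It stood at 3094 CPM in library 23 and 3503 in library 24. In lentiviral tumours it had a lowest value of 16 CPM (library 19), a median of 269 and a highest value of 971 (library 9). The experiments did not overlap: the lowest Ad-Krt5-Cre library was 1.97 times the highest lentiviral one. Among all genes tested, 1.25% had every Ad-Krt5-Cre library above every lentiviral one, and 1.04% had every one below. Trf was 11-fold higher in Ad-Krt5-Cre by edgeR's quasi-likelihood test (log2 fold change 3.46, SE 0.485, adjusted p = 2.14e-05), and ranked 73 by fold change among the 16180 genes tested. An exact permutation test of log2(CPM + 0.5), two-sided over all 177100 ways to choose 6 of 25 libraries, gave p = 5.65e-06, the smallest it can give.

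Trf dominated the summed counts of the 9 genes in the adenoviral tumours. It took between 62.6% and 79.5% of them in Ad-Krt5-Cre libraries, and between 1.97% and 18% in lentiviral libraries. All 9 together held between 0.297% and 0.794% of a library's counts in Ad-Krt5-Cre, and between 0.0811% and 0.796% in the lentiviral libraries. Per length, as TPM (transcripts scaled to a fixed sum), the median level of Trf was 3513 TPM in Ad-Krt5-Cre, rank 20 among 52941 genes, and 266 TPM in lentiviral tumours, rank 517.

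Transferrin is also made by hepatocytes and by glial cells, so their markers are given beside it. Alb was at 0 in 5 of 6 Ad-Krt5-Cre libraries and in 15 of 19 lentiviral libraries, and nowhere above 0.110 CPM. Serpina1a was at 0 in all 25, and Ttr stayed at or under 0.172 CPM in Ad-Krt5-Cre and 1.72 CPM in lentiviral libraries. Apoa1 stayed at or under 0.115 CPM in Ad-Krt5-Cre and 0.457 CPM in lentiviral libraries. The fifth hepatocyte marker, Fgb, a fibrinogen chain, reached 398 CPM in library 22, the library with the highest Trf, and 135 CPM in lentiviral library 7. The 8 glial markers summed to between 77.4 and 483 CPM in Ad-Krt5-Cre libraries and between 26.2 and 493 CPM in lentiviral libraries. The medians of the sum were 197 and 162 CPM, of which Sox10 alone had medians of 103 and 118 CPM. The log2 fold changes were 0.22 for Sox10, -0.09 for Mbp, 1.17 for S100b and 2.13 for Mag. None of these 4 was called (edgeR, adjusted p = 0.836, 0.872, 0.219 and 0.109). The part of glial cells in the Trf difference was not tested. Without the 7 libraries rich in macrophage markers the log2 fold change of Trf was 3.07 (edgeR, adjusted p = 0.00272).

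Wap lies at chr11:6635482-6638637. In Ad-Krt5-Cre tumours it had 4 counts in library 20, 2 in library 21, 1 in library 22, 1 in library 25, 10 in library 23 and 9 in library 24. That is 0.180, 0.0947, 0.0772, 0.0574, 1.30 and 0.622 CPM in the same order of libraries, and the exact 95% interval of the 1 count in library 22 reaches up to 0.430 CPM. In lentiviral tumours the lowest value was 0.0444 CPM (library 16), the median 2.01 and the highest 73.1 (library 15), with 72.9 in library 14. The experiments overlapped, but no Ad-Krt5-Cre library reached the lentiviral median, and 10 lentiviral libraries stood above every Ad-Krt5-Cre library. Wap averaged 0.389 ± 0.495 CPM in Ad-Krt5-Cre (SD, n = 6) and 11.3 ± 22.4 CPM in lentiviral libraries (SD, n = 19). It was lower in Ad-Krt5-Cre by edgeR (log2 fold change -4.89, SE 1.56, adjusted p = 0.0253), and the exact two-sided permutation test of log2(CPM + 0.5) gave p = 0.0298 for a difference of -2.1 on that scale.

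The Wap call lay close to the threshold by edgeR. It passed in 9 of the alternatives with an adjusted p and failed in the others. Among those that passed were DESeq2 (adjusted p = 6.14e-05), the combined table alone (edgeR, adjusted p = 0.0249) and the fit without the fibroblast-rich libraries (edgeR, adjusted p = 0.0124). The settings in which it failed follow. By edgeR the adjusted p was 0.0570, 0.0576, 0.0580 and 0.0501 without libraries 20, 21, 22 and 25 in turn, with log2 fold changes of -4.73, -4.71, -4.69 and -4.65. It was 0.194 without the 7 macrophage-rich libraries (log2 fold change -3.05) and 0.0514 without the 6 libraries of over 30000000 counts (log2 fold change -3.42). Both of these settings leave out libraries 14 and 15.

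Lalba, at chr15:98480400-98482721, had 15.5, 22.3, 31.7 and 1.09 CPM in Ad-Krt5-Cre libraries 20, 21, 22 and 25, and 8.85 and 8.98 CPM in libraries 23 and 24. In lentiviral tumours it had between 1.90 CPM (library 19) and 568 CPM (library 7), with a median of 34.6. All 6 Ad-Krt5-Cre libraries lay below the lentiviral median, within an overlapping range. The log2 fold change was -2.74 (95% interval -4.77 to -0.70, edgeR, adjusted p = 0.0588). It passed with DESeq2 (adjusted p = 0.00524) and without the 3 libraries richest in fibroblast markers (edgeR, adjusted p = 0.0225), and over all alternatives its adjusted p ran between 0.00524 and 0.161.

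Glycam1, at chr15:103562759-103565081, had 0.180, 0, 1.08 and 0.861 CPM in libraries 20, 21, 22 and 25, and 2.99 and 9.12 CPM in libraries 23 and 24. A count of 0 in library 21 allows up to 0.142 CPM, for counting error only. In lentiviral tumours it was 0 in library 16, had a median of 3.13 CPM and reached 371 CPM in library 14 and 304 CPM in library 15. These 2 libraries were also the highest for Wap. The experiments overlapped, and the difference did not pass (log2 fold change -4.22, 95% interval -7.79 to -0.65, edgeR, adjusted p = 0.0981). The size of the fold depended on the setting: the log2 value was -1.997 with DESeq2, -1.85 without the macrophage-rich libraries, -1.50 without those of over 30000000 counts, -6.51 in the combined table alone and -5.54 without library 24. The 4 other markers of high endothelial venules summed to 0.381 CPM in library 14 and 0.701 CPM in library 15, and to at most 1.66 CPM in any Ad-Krt5-Cre library and 3.29 CPM in any lentiviral library.

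Olah was low and uneven. It was 0 in libraries 21, 22, 23 and 24 and had 1.04 and 2.30 CPM in libraries 20 and 25 of the Ad-Krt5-Cre tumours. It was 0 in lentiviral libraries 9, 10, 13 and 19, with a median of 0.123 CPM and a highest value of 5.55 CPM, from 85 counts, in library 1, while libraries 14 and 15 had 128 counts each. At 0 counts the shallowest of these, library 23, allows up to 0.390 CPM. The difference did not pass (log2 fold change -0.62, 95% interval -2.99 to 1.75, edgeR, adjusted p = 0.756).

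Among the globule genes, Mfge8 had the highest level per length. It had 1548, 264, 1148 and 687 CPM in Ad-Krt5-Cre libraries 20, 21, 22 and 25, and 1462 and 1443 CPM in libraries 23 and 24. In lentiviral tumours it had between 448 CPM (library 16) and 5099 CPM (library 7), with a median of 1406. Library 21, the lowest of all 25, is the one with the most macrophage and fewest basal marker counts, and the part of its makeup was not tested. The log2 fold change was -0.71 (95% interval -1.52 to 0.11, edgeR, adjusted p = 0.236).

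Btn1a1 had 70.6, 62.2, 175 and 80.5 CPM in Ad-Krt5-Cre libraries 20, 21, 22 and 25, and 138 and 166 CPM in libraries 23 and 24. In lentiviral tumours it had between 3.87 CPM (library 19) and 981 CPM (library 7), with a median of 212, above all 6 Ad-Krt5-Cre libraries. Yet 5 lentiviral libraries lay below every Ad-Krt5-Cre library and 10 above, so the spread of the lentiviral tumours spanned the other experiment on both sides. The log2 fold change was -1.04 (95% interval -2.43 to 0.34, edgeR, adjusted p = 0.310).

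Xdh had 221, 108, 231 and 128 CPM in Ad-Krt5-Cre libraries 20, 21, 22 and 25, and 123 and 129 CPM in libraries 23 and 24, against 126 to 403 CPM and a median of 214 in lentiviral tumours. Libraries 21 and 23 lay below every lentiviral library, and libraries 20 and 22 above the lentiviral median. The log2 fold change was -0.48 (95% interval -0.87 to -0.10, edgeR, adjusted p = 0.0757). It passed in 3 of the alternatives and by the exact two-sided permutation test of that gene alone (p = 0.0381).

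Plin2 had 352, 373, 323 and 160 CPM in Ad-Krt5-Cre libraries 20, 21, 22 and 25, and 113 and 117 CPM in libraries 23 and 24. In lentiviral tumours it had between 111 CPM (library 5) and 352 CPM (library 7), with a median of 237. The ranges nearly coincide, and the log2 fold change was 0.13 (95% interval -0.40 to 0.65, edgeR, adjusted p = 0.780). Without library 21 its sign turned, at -0.20.

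**Figure D2:**
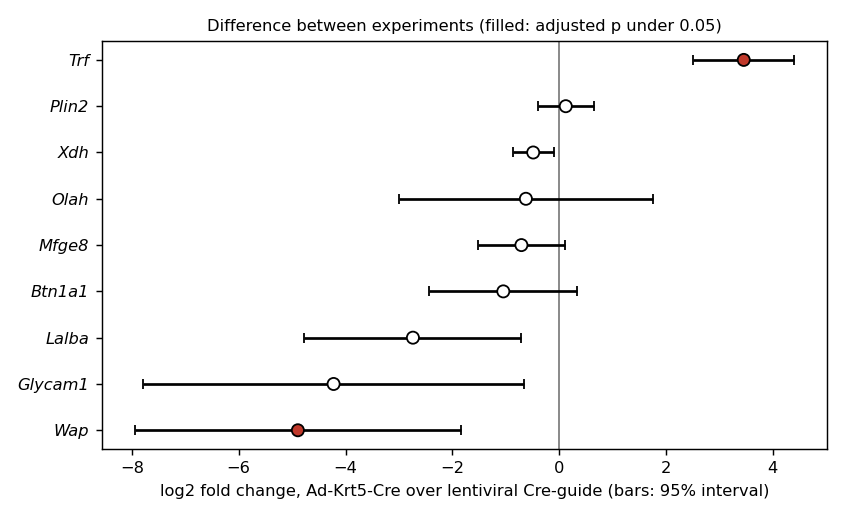
Log2 fold change of each gene, Ad-Krt5-Cre over lentiviral Cre-guide, from edgeR; bars are 95% intervals and filled points have an adjusted p under 0.05. Trf lies at 3.46 and Wap at -4.89, and the interval of Glycam1 runs between -7.79 and -0.65 although its adjusted p is 0.0981.

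Libraries 23 and 24, the Kdm6afl/fl pair of the second table, are set beside the other 4 Ad-Krt5-Cre libraries without a test, because table and genotype cannot be told apart. Over all genes, libraries 23 and 24 were the closest pair after lentiviral pairs 3 and 4, 10 and 11, and 14 and 15. Whether libraries 23 and 24 are independent was not resolved. Their near-equal values may therefore not be separate evidence, here or in the tests, which count them as 2. Wap had 1.30 and 0.622 CPM in this pair and at most 0.180 CPM in the other 4. Glycam1 had 2.99 and 9.12 CPM in the pair and at most 1.08 CPM in the other 4, and Csn2, the beta-casein gene, 179 and 296 CPM against at most 8.24 CPM. Plin2 ran the other way, with 113 and 117 CPM in the pair and at least 160 CPM in the other 4. Trf, Mfge8 and Btn1a1 of the pair lay within the range of the other 4. Within the combined table alone, edgeR called 24% of 16922 genes between the 4 Ad-Krt5-Cre and 19 lentiviral libraries, and Trf and Wap were again the 2 called of 9.

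Per length, the order of the genes differed between the experiments at the top. In Ad-Krt5-Cre tumours the medians were 3513 TPM for Trf, 1015 for Mfge8, 264 for Plin2, 96.5 for Btn1a1, 60.4 for Lalba, 50.7 for Xdh, 1.74 for Glycam1, 0.515 for Wap and 0 for Olah. The lowest Trf value, 2149 TPM, lay above the highest Mfge8 value, 1313 TPM, so that step was larger than the spread between libraries. From Mfge8 down, the ranges of neighbours overlapped, except that the lowest Xdh value, 39.5 TPM, lay above the highest Glycam1 value, 15 TPM. In lentiviral tumours the medians were 903 TPM for Mfge8, 266 for Trf, 239 for Plin2, 137 for Lalba, 136 for Btn1a1, 76.8 for Xdh, 6.82 for Wap, 4.92 for Glycam1 and 0.244 for Olah, and the ranges of all neighbours in that order overlapped.

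The lentiviral tumours differed widely among themselves in the whey genes. The SD of log2(CPM + 0.5) over the 19 libraries was 2.93 for Glycam1, which ranks 7 among 13497 genes, 2.21 for Wap, 2.20 for Lalba, 2.1 for Btn1a1 and 1.61 for Trf, beside a median of 0.49 over all these genes. Mfge8 had an SD of 0.95. The droplet and enzyme genes lay near the median of all genes, with 0.56 for Plin2 and 0.45 for Xdh. These SDs hold differences between guides as well as between tumours. The lowest lentiviral values of Trf and Btn1a1, in libraries 16, 18 and 19, were those with 53998 to 73929 CPM of fibroblast markers and 251 to 1526 CPM of luminal markers, and the part of that makeup was not tested.

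**Figure D3:**
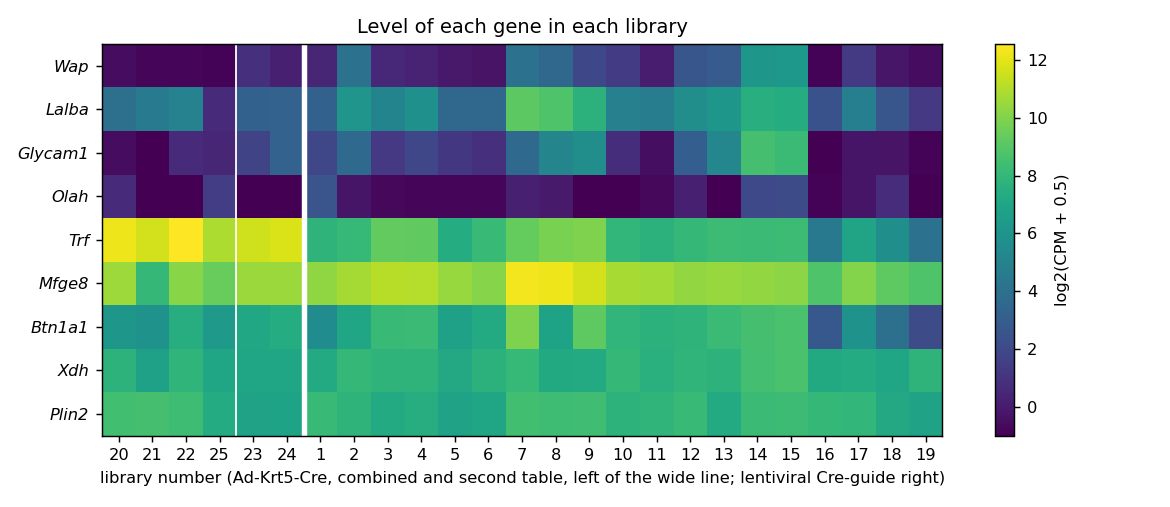
Level of each gene as log2(CPM + 0.5) (colour) in each library (columns, by number; Ad-Krt5-Cre left of the wide line, with libraries 23 and 24 after the thin line, and lentiviral Cre-guide right). The Trf row is brightest in the Ad-Krt5-Cre libraries, Wap and Glycam1 are brightest in libraries 14 and 15, and Lalba and Mfge8 in libraries 7 and 8.

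Over the 19 lentiviral libraries, the genes tended to be high in the same tumours. All 28 pairs of the 8 genes with a median of at least 1 CPM had a positive Spearman rho, and 21 passed a two-sided permutation test with 100000 resamples, adjusted over the 28 pairs. By Pearson's r 19 passed, and 17 by rho with TMM-scaled CPM. Over all 91077756 pairs of the 13497 genes with that median level, 55.3% had a positive rho, and 8.39% reached 0.497, the lowest rho that passed here. The libraries differ in luminal and fibroblast markers, as given above, and the part of that in these correlations was not tested. The permutation treated the 19 libraries as interchangeable, although they hold 7 guides and the close pairs given below. Its p-values therefore do not separate differences between guides from those between tumours, and may be too small. Wap and Glycam1 had Pearson r = 0.901 and Spearman rho = 0.863 (permutation p = 1e-05 for both, the smallest it can give, adjusted p = 9.3e-05), and r = 0.805 without libraries 14 and 15, the 2 farthest from the median of Wap. Wap and Lalba had r = 0.809 (permutation p = 3e-05, adjusted p = 0.00012) and rho = 0.886 (permutation p = 1e-05, adjusted p = 9.3e-05), and r = 0.848 without the same 2.

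Transferrin was high in the same tumours as Mfge8 and Btn1a1. Trf and Mfge8 had r = 0.912 (permutation p = 1e-05, adjusted p = 9.3e-05) and rho = 0.793 (permutation p = 0.00014, adjusted p = 0.00049), and r = 0.866 without libraries 16 and 19. Trf and Btn1a1 had r = 0.898 (permutation p = 1e-05, adjusted p = 9.3e-05) and rho = 0.811 (permutation p = 4e-05, adjusted p = 0.000224), and r = 0.745 without the same 2. Trf and Xdh did not pass, with r = 0.249 (permutation p = 0.301, adjusted p = 0.324) and rho = 0.337 (permutation p = 0.157, adjusted p = 0.169), and r = 0.270 without the same 2. Trf and Plin2 had r = 0.402 (permutation p = 0.0873, adjusted p = 0.102) and rho = 0.509 (permutation p = 0.0282, adjusted p = 0.0412), and r = 0.397 without the same 2. At the other end, Xdh and Plin2 had r = 0.215 (permutation p = 0.374, adjusted p = 0.388) and rho = 0.246 (permutation p = 0.31, adjusted p = 0.321), and r = 0.019 without libraries 15 and 18.

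Depth separated the lentiviral libraries into 6 of over 30000000 counts and 13 below. Within the 13, rho was 0.725 for Wap and Glycam1, 0.747 for Trf and Mfge8 and 0.852 for Trf and Btn1a1, and 25 of 28 pairs were positive. Within the 6, rho was 0.886, 0.886 and 0.83 for these pairs and 24 of 28 were positive. Plin2 was the gene whose relations differed most between the depths: with Trf, rho was -0.137 within the 13 and 1.00 within the 6, so the pooled value of 0.509 does not hold within both. Xdh also differed, in the other direction. With Trf its rho was 0.725 within the 13 and -0.029 within the 6, and with Lalba 0.802 and -0.143. Its rho with Wap was 0.780 and 0.600, and with Glycam1 0.571 and 0.600. The pooled value of 0.337 for Trf and Xdh thus does not hold within both depths either. Among the lentiviral libraries, 3 and 4, 10 and 11, and 14 and 15 were the closest pairs over all genes. They still differed by more than sampling noise. With each of these pairs averaged, all 28 values stayed positive over 16 units, and they stayed so without library 13.

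**Figure D4:**
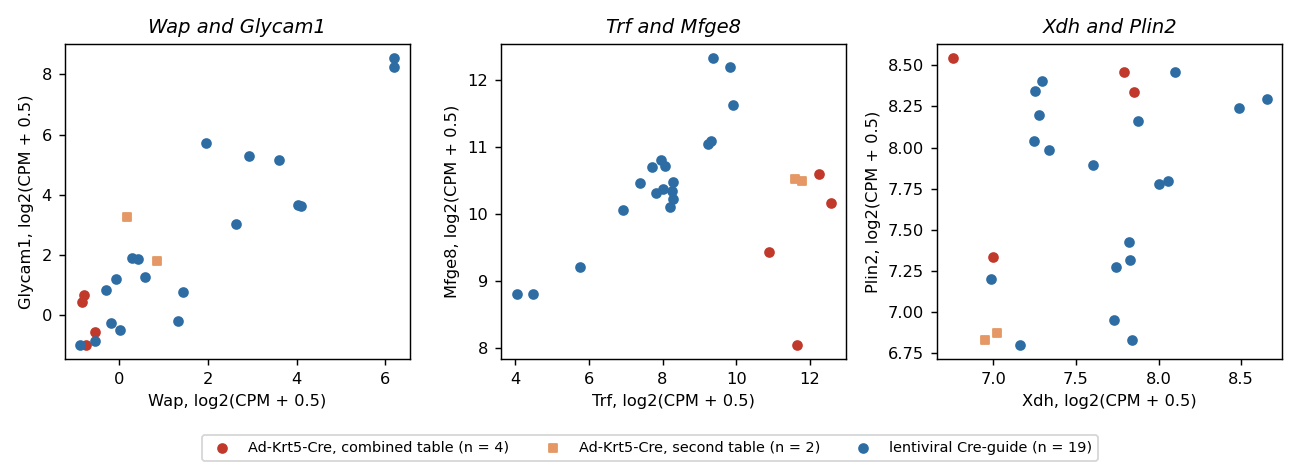
Pairs of genes as log2(CPM + 0.5) in each library, with Ad-Krt5-Cre in red circles (combined table, n = 4) and orange squares (second table, n = 2) and lentiviral Cre-guide in blue (n = 19). Over the lentiviral libraries rho was 0.863 for Wap and Glycam1, 0.793 for Trf and Mfge8 and 0.246 for Xdh and Plin2; the Ad-Krt5-Cre libraries lie to the right of the lentiviral ones along Trf.

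Genes outside the group whose levels were most like each member over the 19 lentiviral libraries were ranked by Spearman rho among 11035 genes, as a description. Folr1, a folate receptor, was closest to Lalba (rho = 0.965), and Hhipl2 to Trf (rho = 0.968), followed by Eps8l2 and Ttll10. Muc1, a membrane mucin, was closest to Btn1a1 (rho = 0.947), ahead of Tprn and Muc15, and Myo18a to Glycam1 (rho = 0.926), ahead of Rnf43 and Atp2c2. Sntb1 was closest to Mfge8 (rho = 0.939), ahead of Atat1 and Rnf167. Rnf145 and S100a1 came next for Lalba. The closest to Xdh was Acsl1, a long-chain acyl-CoA synthetase, at a lower rho of 0.809, ahead of Smarcd2 and Gtf2ird2. Plin3, another lipid droplet protein, was closest to Plin2 (rho = 0.881), ahead of Rnf5 and Slc38a7.

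Other genes of milk synthesis were read from the same fit in 5 lists. Their counts stand beside 13.1% of all genes called higher, 9.13% lower and a median log2 fold change of 0.06. None of the 4 caseins tested was called, with a median log2 fold change of -3.05, and Csn2 stood at -4.03 (edgeR, adjusted p = 0.0662); Csn1s2b did not pass the filter on low counts. DESeq2 called 3 of the 4 lower, beside 1862 lower and 2576 higher of 15636 genes. Of 12 other secreted milk proteins, 4 were lower and none higher in Ad-Krt5-Cre, with a list median of -1.44. By edgeR, Saa3, a serum amyloid A protein, had a log2 fold change of -4.57 (adjusted p = 0.00878), Cel, the bile-salt-stimulated lipase, -3.71 (adjusted p = 0.041), Wfdc3, a member of the WAP four-disulfide core family, -2.28 (adjusted p = 0.00707) and Spp1, osteopontin, -0.89 (adjusted p = 0.0402).

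Of 9 genes of lactose synthesis and sugar transport, 3 were lower in Ad-Krt5-Cre and none higher, with a list median of -0.41. These were Pgm2, a phosphoglucomutase, at -1.11 (edgeR, adjusted p = 0.0133), Slc2a1, the glucose transporter GLUT1, at -0.80 (edgeR, adjusted p = 0.0395) and Galk1, galactokinase, at -0.70 (edgeR, adjusted p = 0.0194). Of 18 regulators of alveolar cells and prolactin signalling, Id2 was higher at 0.90 (edgeR, adjusted p = 0.0454) and Cebpb lower at -0.97 (edgeR, adjusted p = 0.025), with a list median of 0.13. The 2 of 18 are a smaller share than the 22.2% called over all genes.

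Of 28 milk lipid genes, 7 were higher and none lower, and the list median of 0.04 was close to the 0.06 of all genes. Without the 7 macrophage-rich libraries, 0 of 27 tested were called by edgeR, with 2 at an unadjusted p under 0.05. Cd36, a fatty acid transporter, had a log2 fold change of 3.59 (edgeR, adjusted p = 0.00367), Plin4, a lipid droplet protein, 3.32 (adjusted p = 0.00281), Lpl, lipoprotein lipase, 1.81 (adjusted p = 0.0326) and Insig1, a sterol-sensing protein, 0.90 (adjusted p = 0.0183). Single libraries stood out here: Cd36 had 281 CPM and Lpl 762 CPM in library 21, the macrophage-rich one, with medians over the Ad-Krt5-Cre libraries of 13.2 and 47.1 CPM. The 7 adipocyte markers summed to between 1.24 and 26.2 CPM in Ad-Krt5-Cre and between 0.941 and 512 CPM in lentiviral libraries. Of these markers, Fabp4 reached 23.7 CPM in Ad-Krt5-Cre and 512 CPM in lentiviral libraries. Adipoq stayed at or under 0.154 CPM in Ad-Krt5-Cre and 0.252 CPM in lentiviral libraries. The part of adipocytes in these values was not tested. The lentiviral medians were 3.35 CPM for Cd36 and 49.3 CPM for Lpl. The 16 calls over these 5 lists became 1 without the 7 macrophage-rich libraries, and 9, 10 and 10 without library 20, 21 or 22 in turn. Calls over all genes fell too, from 3590 of 16180 to 1195 of 16040 without the macrophage-rich libraries. They were 2847 of 16342, 2808 of 16384 and 2830 of 16371 without library 20, 21 or 22. A drop was thus seen over all genes as well, and whether it was steeper in these lists was not tested.

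**Figure D5:**
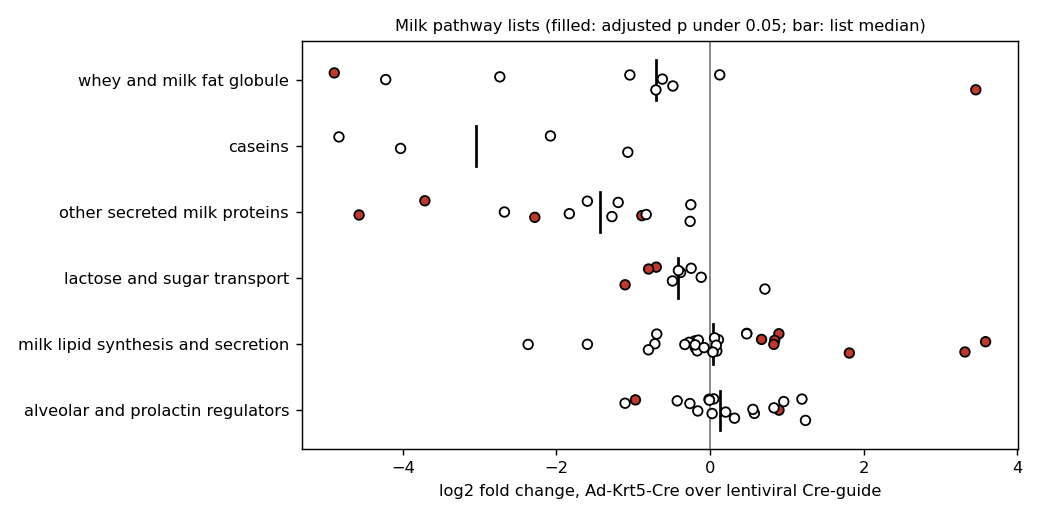
Log2 fold change, Ad-Krt5-Cre over lentiviral Cre-guide, of each tested gene in the group described here (top) and 5 other milk lists; filled points have an adjusted p under 0.05 (edgeR) and the bars are list medians. The caseins have a median of -3.05 with none called, and the milk lipid list has 7 called, all higher.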

How the data were processed

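Values are raw counts per gene symbol as deposited by the authors, without normalization, in a table of 23 libraries and a second table of 2. The submitters' processing notes list the tools HISAT2 2.1.0, featureCounts and DESeq2 and the builds mm10 and GRCm38. Annotation, strand setting and treatment of shared reads were not given in the sources used here. In GENCODE M21, Gm20425 shares exon bases with Trf on the same strand, but it has no row among the joined symbols. The other 8 genes share no exon base with another annotated gene.

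The tables were joined over 53070 shared symbols. Rows outside them held 0.625% and 0.636% of the counts of libraries 23 and 24, and 26 rows of the second table carry a date in place of a symbol. Columns were placed by the numbers in the study's design text, never by record order. Sample groups by guide were therefore not resolved, and the targeted genes were not used to check labels.

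CPM used library totals and TPM the union of exons in GENCODE M21 on GRCm38, for 52941 symbols with 1 annotated gene. Experiments were compared with edgeR 4.0.16 in R 4.3.3 (TMM, filterByExpr, quasi-likelihood test, Benjamini-Hochberg over all genes), with DESeq2 1.42.0 as an alternative, and the script was tested on simulated data. Log2 fold changes are Ad-Krt5-Cre over lentiviral. Intervals of fold changes are 95% intervals from the SE, and a count of 0 allows 3 counts. Correlations and exact tests used log2(CPM + 0.5) in Python 3.11.15 with scipy 1.17.1. The alternatives covered scaling, filter, table, single libraries, marker-rich libraries, library 13, depth and close pairs.

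Named were all 9 genes, the 3 genes most like each member with a median of at least 1 CPM (among genes of at least 5 CPM), and up to 4 called genes per list with the largest change in each direction. The other genes named, such as Csn2 and the markers, were chosen after their values were seen. The members and lists were chosen with earlier results of these data known. The result of a single marker gene is not reported here.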

Additional observations from a re-analysis of the deposited data

Results flagged for a closer look

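In a test for a single sample far from the rest, run on 18 groups of libraries, 2 values stood out, and chance flags about 1 in 20 groups. Glycam1 in library 24, at 9.12 CPM, was far above the other 5 Ad-Krt5-Cre libraries, with a gap of 0.672 of the whole range. Btn1a1 in library 22, at 175 CPM, was far above the other 3 Ad-Krt5-Cre libraries of the combined table, with a gap of 0.838 of the range.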

How the results depend on the processing

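Trf stayed called in all 15 alternatives with an adjusted p (edgeR, and DESeq2 for 1 of them), with log2 fold changes between 3.07 and 3.95 when the permutation value is included. Of 143 values of the 9 genes under alternatives, 127 kept direction and side of the threshold, 6 lost the call, 6 gained it and 4 turned sign. For the exact permutation test the threshold was an unadjusted p under 0.05. By that threshold Xdh (exact permutation p = 0.0381) was counted as a gain and Wap (exact permutation p = 0.0298) as kept. Olah turned to 0.46 without the macrophage-rich libraries. Plin2 turned to -0.20 without library 21 (range -0.20 to 0.27 leaving out single libraries), to -0.20 without the macrophage-rich libraries and to -0.029 in the permutation test's scale. Over all genes, 5735 of 33841 were called with no filter, 1195 of 16040 without the macrophage-rich libraries and 3523 of 15828 without the fibroblast-rich ones. They numbered 2457 of 15428 without libraries of over 30000000 counts and 2983 of 16534 with the 4 closest pairs summed. These pairs were libraries 3 and 4, 10 and 11, 14 and 15, and 23 and 24. With them summed, Trf and Wap stayed called (edgeR, adjusted p = 0.000317 and 0.0362). Leaving out single Ad-Krt5-Cre libraries gave between 2808 and 3636 genes. Members called numbered 1 without the macrophage-rich libraries, 4 without the fibroblast-rich ones, 1 without those of over 30000000 counts, and 1 to 2 leaving out single libraries. In the combined table alone, leaving out each Ad-Krt5-Cre library gave 1. Calls over the 5 other lists numbered 1 without the macrophage-rich libraries, 10 without those of over 30000000 counts, 9 with the closest pairs summed, and 9 to 16 leaving out single libraries. The cause of these shifts was not tested. The settings on marker-rich libraries, library 13, depth and close pairs were chosen after seeing the data. No paired analysis was possible because the columns carry no replicate numbers. Wap rests on 1 to 10 counts per library in Ad-Krt5-Cre.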
